A study of Mus musculus with 79 samples.

Results

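The 9 genes described here are transcripts that mark pluripotent mouse cells in general: Pou5f1, Sox2, Utf1, Dppa2, Dppa4, Dppa5a, L1td1, Lin28a and Sall4. They were taken by gene symbol from 19526 genes with reads in wild-type E14 cells, 21193 in SCC1-mAID cells and 19482 in edited clones, and all 9 had reads and passed the filter on low counts in each of the 3 tables. RNA was sequenced from mouse embryonic stem cells in 79 libraries of 32 groups. E14 cells, labelled wildtype, gave total RNA in 25 libraries before and after 2, 4 or 6 h, or 24, 48 or 72 h, of 1 uM all-trans retinoic acid (RA), a vitamin A derivative that drives stem cells to differentiate. The 0 h group had 2 libraries (numbered 3 and 4), the 24 h group 3 and every other group 4. For the last time point the sample names read 72 h, as used here, and a second label 74 h. SCC1-mAID cells, of genotype E14;Rosa26::Tir1;Scc1-mAID-eGFP, gave nuclear RNA in 12 libraries, 3 each untreated, after 4 h of RA, after 6 h of 500 uM auxin (IAA), and after 6 h of auxin with RA in the last 4 h. In these cells all groups, controls included, carry the degron-tagged cohesin subunit Scc1 (Rad21), which auxin removes as a protein, so RNA does not check the depletion. The clones gave nuclear RNA in 42 libraries, 2 before RA and 2 after each of 2, 4 or 6 h and 24, 48 or 74 h of it. Clones E3 and H12, of genotype E14;HoxTransEdel, lack a transient enhancer in the Hoxb gene cluster, and clone G4, of genotype E14;HoxTransEwt, went through the same procedure and kept it. There was 1 wild-type clone, so the deletion and differences between clones cannot be told apart.

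Pou5f1 (Oct4) and Sox2 encode transcription factors that bind DNA together at the enhancers of pluripotency genes, and Sall4 encodes a zinc-finger factor that binds near many of the same sites. Utf1 encodes a chromatin-associated protein of undifferentiated cells, Dppa2 and Dppa4 encode paired SAP-domain chromatin proteins that act early in the embryo, and Dppa5a encodes a KH-domain RNA-binding protein. L1td1 encodes an RNA-binding protein derived from a LINE-1 element, and Lin28a encodes an RNA-binding protein that blocks maturation of let-7 microRNAs. RA is known to end the pluripotent state, and Sox2, Sall4 and Lin28a are also used by neural or endodermal progenitors.

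In mm10 coordinates as the deposited tables give them, Pou5f1 spans chr17:35506032-35510777 on the plus strand. Sox2 spans chr3:34650005-34652460 on the plus strand and lies inside the noncoding gene Sox2ot, chr3:34560381-34677993, which is transcribed from the same strand. Utf1 spans chr7:139943856-139945112 (plus strand) and L1td1 spans chr4:98726754-98738486 (plus strand). Dppa4, chr16:48283735-48294292, and Dppa2, chr16:48310274-48319513, are neighbours on the plus strand. Dppa5a, chr9:78367054-78368199, Lin28a, chr4:134003330-134018816, and Sall4, chr2:168748332-168767201, lie on minus strands. The 250 bases before the transcription start, from RefSeq on GRCm38.p6 (the same assembly as mm10), were found for 5 of the 9 genes. All 5 genes found are shown: Pou5f1, Utf1 and L1td1, which fell furthest in E14 cells, and Sox2 and Lin28a, which fell less. Capitals mark exact matches to 5 short motifs searched on both strands: octamer-like ATGCAAA, SOX-like CATTGT, the nuclear receptor half-site AGGTCA, the GC box GGGCGG and the TATA box TATAAA. Pou5f1 is shown at chr17:35505782-35506031, Utf1 at chr7:139943606-139943855, L1td1 at chr4:98726504-98726753, Sox2 at chr3:34649745-34649994 (all plus strand) and Lin28a at chr4:134018817-134019066 (minus strand), each read 5′ to 3′ toward the gene.
Pou5f1: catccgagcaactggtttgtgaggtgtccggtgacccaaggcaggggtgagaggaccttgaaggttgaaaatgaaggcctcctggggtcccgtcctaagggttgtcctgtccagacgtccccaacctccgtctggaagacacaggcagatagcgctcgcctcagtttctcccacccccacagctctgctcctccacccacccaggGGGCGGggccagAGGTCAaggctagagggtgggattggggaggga
Utf1: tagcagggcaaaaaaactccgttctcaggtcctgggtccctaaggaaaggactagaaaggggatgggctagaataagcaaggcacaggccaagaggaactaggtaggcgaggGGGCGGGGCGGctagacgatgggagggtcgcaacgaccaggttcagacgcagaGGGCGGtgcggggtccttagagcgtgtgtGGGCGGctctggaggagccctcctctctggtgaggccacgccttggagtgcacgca
L1td1: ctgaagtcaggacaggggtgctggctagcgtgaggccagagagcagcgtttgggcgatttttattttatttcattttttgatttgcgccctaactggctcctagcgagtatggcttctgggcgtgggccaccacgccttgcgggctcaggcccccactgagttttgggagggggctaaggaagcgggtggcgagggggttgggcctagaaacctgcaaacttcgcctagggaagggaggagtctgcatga
Sox2: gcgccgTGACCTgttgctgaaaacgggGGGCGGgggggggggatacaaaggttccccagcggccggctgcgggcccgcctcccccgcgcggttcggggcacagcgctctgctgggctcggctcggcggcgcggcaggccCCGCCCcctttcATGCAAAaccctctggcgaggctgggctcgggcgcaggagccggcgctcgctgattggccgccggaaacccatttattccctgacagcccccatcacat
Lin28a: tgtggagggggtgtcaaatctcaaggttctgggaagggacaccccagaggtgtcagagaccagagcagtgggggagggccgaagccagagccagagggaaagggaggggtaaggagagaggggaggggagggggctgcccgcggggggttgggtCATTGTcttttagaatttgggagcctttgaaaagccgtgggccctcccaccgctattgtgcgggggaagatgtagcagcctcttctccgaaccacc

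The Pou5f1 window held a nuclear receptor half-site with its first base 33 bases before the start and a GC box at 45. A further Pou5f1 window, chr17:35508557-35508806, is not printed and held 1 SOX-like match, 158 bases before its start. The Utf1 window held 4 GC boxes, at 138, 133, 85 and 56 bases before the start, of which the first pair overlap. No match to these motifs was found in the L1td1 window. The Sox2 window held an octamer-like match 99 bases before the start, a half-site on the other strand and 2 GC boxes. The Lin28a window held 1 SOX-like match, 96 bases before the start. Among 32851 windows of the same length in RefSeq, 4.12% held the octamer-like motif, 10.7% the SOX-like motif, 14% the half-site, 32.7% the GC box and 12.4% the TATA box, so each match is a description of these letters and not a bound site.

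Reads assigned to genes ranged from 2352114 to 21082331 per E14 library, from 3126363 to 7499040 in SCC1-mAID cells and from 4754309 to 10450047 in the clones. Levels are given as CPM, counts scaled to a common library size after TMM normalization. Changes are log2 fold changes ± approximate SE from edgeR's quasi-likelihood test, with Benjamini-Hochberg adjustment over all genes tested in the set and a call at an adjusted p under 0.05. The RA target genes Cyp26a1, Rarb, Stra8, Hoxb1 and Dhrs3 were each called higher in E14 cells at 72 h, in RA-treated SCC1-mAID cells and in G4 at 74 h, as their labels state. In E14 cells the replicates numbered 1 and 2 stood apart from 3 and 4 at 2, 4 and 72 h, and at 2 and 4 h also from each other. At 2 and 4 h the chi-square per gene between replicates 3 and 4 was 2.31 and 2.86, and that of every pair with replicate 1 or 2 was 11.6 to 16.5 and 10.4 to 21.4. At 6 h all pairs were at 6.56 to 16.3. At 72 h replicates 3 and 4 were at 3.29 against 4.84 between 1 and 2 and 7.06 to 8.03 across. At 48 h replicates 2 and 4 were the closest pair, at 2.48, beside 3.25 between 1 and 2 and 3.80 between 3 and 4. In bulk RNA, fewer cells expressing a gene and less RNA per cell cannot be told apart.

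Before RA, the members covered a wide span of levels per transcript length in E14 cells. Dppa5a was highest, at 291 and 298 FPKM (fragments scaled by transcript length and library size) in the 2 libraries, followed by Pou5f1 at 209 and 211 and Utf1 at 148 and 149. L1td1 stood at 118 and 123 FPKM, Sox2 at 92.9 and 97.5, Lin28a at 82.9 and 89.3, and Sall4 at 69.7 and 66.8. Dppa4, at 34.5 and 35.3 FPKM, and Dppa2, at 19.5 and 20.2, were lowest. No 2 neighbours in this order overlapped, with 2 libraries each.

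Over the first 6 h of RA no member was called in E14 cells, where 0.0928% of all genes were called lower and 0.404% higher at 2 h, 0.908% and 1.53% at 4 h, and 1.8% and 2.16% at 6 h. At an unadjusted p under 0.05 there were 0, 0 and 1 members. Summed levels of 6 fibroblast markers were 760 and 961 CPM in replicates 1 and 2 at 2 h, 708 and 1261 CPM at 4 h and 585 and 991 CPM at 6 h. In replicates 3 and 4 they were 227 and 217, 191 and 192, and 162 and 200.3 CPM, beside 244 and 241 CPM at 0 h, where only these numbers exist. The part of these markers in the early results was not tested. Dppa2 came nearest, with 67.5 and 70.1 CPM at 0 h and 105, 109, 111 and 118 CPM at 6 h. All 4 treated libraries lay above both untreated ones, but the change of 0.68 ± 0.28 had an adjusted p of 0.22. Among the libraries numbered 3 and 4 alone it was 0.74, with an adjusted p of 0.00073.

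By 72 h, 7 of the 9 members were called lower and none higher, against 29.3% of all genes called lower and 30.4% higher. The members' median change was -0.90, beside 0.00 over all genes. With the authors' size factors the median over all genes was 0.27, and 67.8% of the calls over all genes were higher, against 50.9% here. Pou5f1, Utf1 and L1td1 fell to between 11.5% and 13.0% of their 0 h mean, Dppa4 to 29.9%, and Dppa2, Sox2 and Sall4 to 53.0%, 54.4% and 65.4%. Dppa5a and Lin28a, at 86.4% and 85.3%, were not called.

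**Figure D1:**
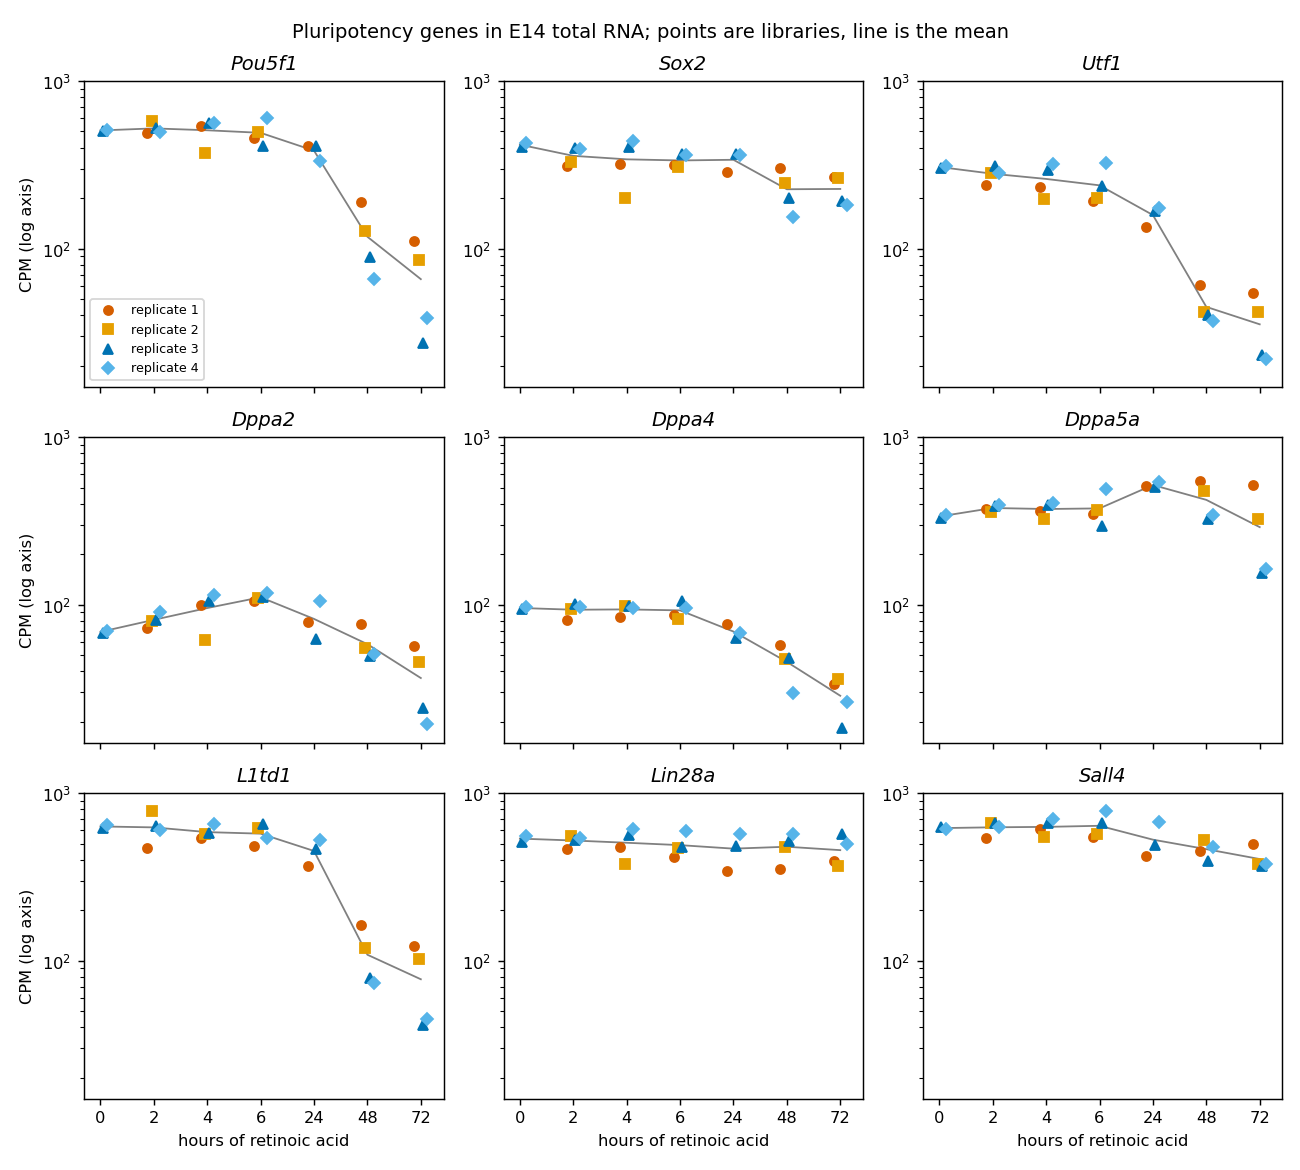
CPM (log axis) of each pluripotency gene in the 25 E14 total RNA libraries against hours of retinoic acid, with points coloured by replicate number and a line through the group means. Pou5f1, Utf1 and L1td1 drop steeply between 24 and 48 h, while Lin28a and Sall4 range from 344 to 777 CPM.

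Among the transcription factors, Pou5f1 stood at 504 and 510 CPM at 0 h and at 408, 409 and 336 CPM at 24 h. It read 189, 127, 89.5 and 65.7 CPM in replicates 1 to 4 at 48 h and 112, 85.8, 27.2 and 38.4 CPM at 72 h. The 48 and 72 h libraries all lay below every earlier one. The change was -2.11 ± 0.37 at 48 h (adjusted p = 8.7e-05) and -2.94 ± 0.38 at 72 h (adjusted p = 1.9e-06). Sox2 started at 406 and 429 CPM and read 288, 367 and 362 CPM at 24 h. It read 304, 246, 200 and 156 CPM at 48 h and 267, 265, 193 and 183 CPM at 72 h, lower than at 0 h in each library. Its change was -0.88 ± 0.24 at both times (adjusted p = 0.003 and 0.0028). Sall4 went from 629 and 606 CPM at 0 h to 498, 376, 365 and 377 CPM at 72 h, where replicate 1 was nearest to the untreated level. Its change of -0.61 ± 0.16 (adjusted p = 0.0019) was -0.33 (adjusted p = 0.16) with the authors' size factors in place of TMM. At 48 h the Sall4 change was -0.42 ± 0.16 (adjusted p = 0.031), and it lost its call without 0 h replicate 3 (adjusted p = 0.14), 0 h replicate 4 (0.089) or 48 h replicate 3 (0.080), with the authors' size factors (0.13), by limma (0.13) and with a replicate block (0.051).

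Utf1, the chromatin-associated factor, was the one member called lower at 24 h, where 13.3% of all genes were called lower. It read 305 and 310 CPM at 0 h and 134, 168 and 174 CPM at 24 h, a change of -0.95 ± 0.27 (adjusted p = 0.013). With either 0 h library left out the adjusted p was 0.062 or 0.076. It read 60.9, 41.9, 40.2 and 36.8 CPM at 48 h and 54.2, 42.1, 23.3 and 21.9 CPM at 72 h, where the change was -3.11 ± 0.27 (adjusted p = 4.2e-09). L1td1, the LINE-1-derived RNA-binding protein gene, went from 618 and 647 CPM to 369, 463 and 522 CPM at 24 h. It then read 163, 119, 79.4 and 73.2 CPM at 48 h and 122, 102, 41.1 and 45 CPM at 72 h, a change of -3.02 ± 0.33 (adjusted p = 1.7e-07). As for Pou5f1, the step of both genes between 24 and 48 h was large on the log2 scale: it was -1.82 ± 0.25 for Utf1, -2.06 ± 0.30 for L1td1 and -1.71 ± 0.34 for Pou5f1, and 4 members were called lower in that step against 11.6% of all genes. The fourth, Dppa4, changed by -0.60 ± 0.17 (adjusted p = 0.012), which lost its call without 24 h replicate 1 (0.067) or 48 h replicate 4 (0.053).

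The neighbours Dppa2 and Dppa4 were both called lower at 72 h, and their log2 levels had a Pearson's r of 0.845 over the E14 libraries. Their courses were not tested against each other. Dppa4 read 94.1 and 97.1 CPM at 0 h, 76.4, 63 and 67.9 CPM at 24 h, 57.4, 47.4, 47.7 and 29.7 CPM at 48 h and 33.5, 36.1, 18.4 and 26.4 CPM at 72 h. Its change was -1.06 ± 0.18 at 48 h and -1.74 ± 0.18 at 72 h (adjusted p = 1.6e-05 and 9.4e-09). Dppa4 was also the one member called between 48 and 72 h (-0.68 ± 0.17, adjusted p = 0.012; 6.09% of all genes called lower), and that call was lost without 48 h replicate 1 (0.062) or 72 h replicate 3 (0.069). Dppa2 read 78.8, 62.8 and 105 CPM at 24 h and 76.9, 54.8, 49.6 and 51 CPM at 48 h, on both sides of its 0 h values. At 72 h it read 56.8, 45.6, 24.2 and 19.4 CPM, all below 0 h, a change of -0.90 ± 0.28 (adjusted p = 0.009). With the authors' size factors the Dppa2 change was -0.65 (adjusted p = 0.061). At 48 h 6 members in all were called lower (Pou5f1, Sox2, Utf1, Dppa4, L1td1 and Sall4), against 26.9% of all genes.

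Dppa5a, the KH-domain gene, read 331 and 341 CPM at 0 h and 512, 504 and 536 CPM at 24 h. The 24 h libraries lay above both untreated ones, but the change of 0.62 ± 0.35 was not called (adjusted p = 0.20). It read 545, 474, 325 and 344 CPM at 48 h and 520, 323, 155 and 163 CPM at 72 h, so replicate 1 was above the untreated level at 72 h, replicate 2 was just under it and replicates 3 and 4 were far below. Lin28a, the let-7 regulator, read 514 and 556 CPM at 0 h, 344, 486 and 568 CPM at 24 h, 354, 476, 518 and 567 CPM at 48 h and 393, 367, 569 and 498 CPM at 72 h. Its untreated values lay inside the range of the 72 h libraries, and the change was -0.23 ± 0.20 (adjusted p = 0.34).

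**Figure D2:**
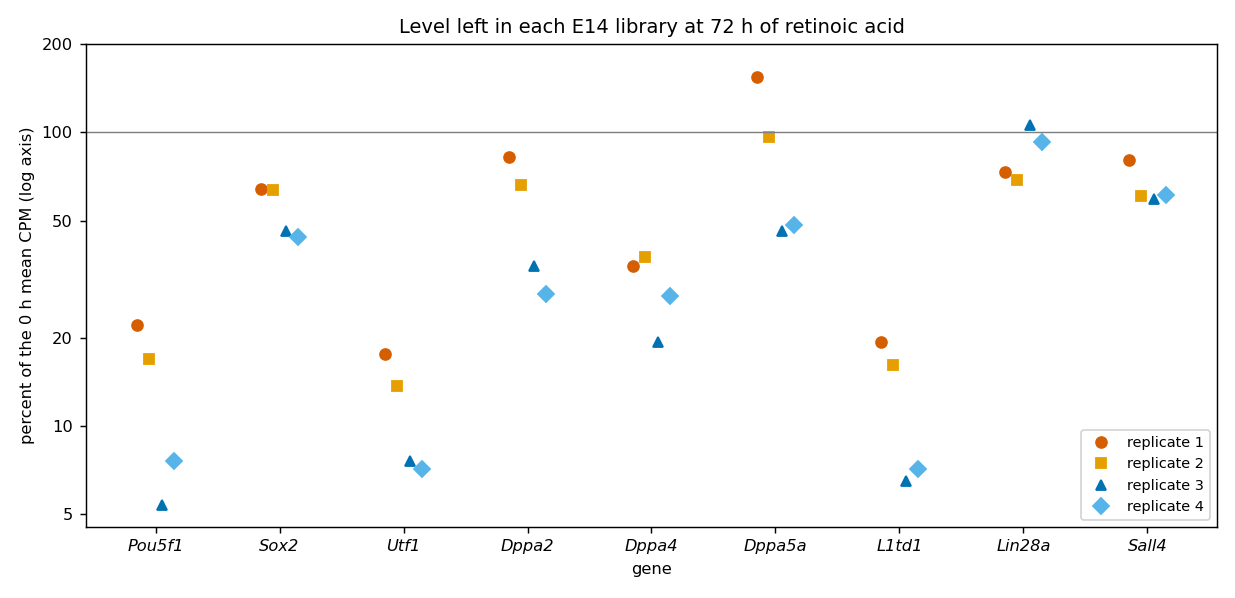
Level of each pluripotency gene in each E14 library at 72 h as a percent of the 0 h mean (log axis), with the 4 replicates marked; the line is 100%. Replicates 3 and 4 lie below 1 and 2 for Pou5f1, Sox2, Utf1, Dppa2, Dppa4, Dppa5a and L1td1, and above them for Lin28a.

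At 72 h replicates 1 and 2 held more of 7 members than replicates 3 and 4 did, and less Lin28a. The share of all genes that separate in these ways is not given here. Over all genes the 2 pairs also differed, with a chi-square per gene of 7.06 to 8.03 across them, against 4.84 and 3.29 within. The split is therefore not read as particular to the members. Untreated libraries exist for numbers 3 and 4 alone, so no change within numbers 1 and 2 could be computed. Within numbers 3 and 4, a subset chosen after seeing the data, 8 members were called lower at 72 h. The share of all genes called lower in that fit is not given here, so the count is not read as particular to the members. The changes were -4.00 for Pou5f1, -3.91 for L1td1, -3.79 for Utf1, -1.67 for Dppa2 and -1.11 for Dppa5a (adjusted p = 1.1e-06), while Lin28a was at -0.03 (adjusted p = 0.86). Summed levels of 11 extraembryonic endoderm markers were 4574, 2677, 3178 and 2828 CPM in replicates 1 to 4 at 72 h, and those of 9 neural markers were 180, 259, 381 and 330 CPM. Their part in the difference between replicates was not tested.

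The wider pluripotency network was read from a list of 23 further genes. At 72 h, 20 of 23 were called lower and 1 higher, with a median change of -1.63. The largest falls were those of Tdgf1, the Nodal co-receptor (-4.83 ± 0.67), Foxd3, a forkhead factor (-4.62 ± 0.28), Tdh, threonine dehydrogenase (-4.55 ± 0.41), and Fgf4, a growth factor gene bound by Oct4 and Sox2 (-4.22 ± 0.28). Tbx3 rose by 0.92, and Nanog (-0.33) and Nacc1 (-0.02) were not called. Nanog read 249 and 247 CPM at 0 h and 382, 239, 78 and 89.2 CPM in replicates 1 to 4 at 72 h, the same order of high and low libraries as Dppa5a.

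Genes around Lin28a and let-7 moved in both directions at 72 h: of 12, 7 were called higher and 3 lower, where 30.4% and 29.3% of all genes were. Hmga2, a let-7 target (3.15 ± 0.71), the RNA-binding protein genes Igf2bp3 (1.69 ± 0.18) and Igf2bp2 (1.63 ± 0.15), and the uridylyltransferase gene Zcchc11 (1.25 ± 0.13) rose most. With the authors' size factors 8 were called higher and none lower. Of 20 relatives of the members, 10 were called higher and 5 lower, the latter near the share over all genes. Sox9 (6.06 ± 0.49), Sox17 (5.87 ± 0.54), Pou3f3 (4.20 ± 0.69) and Sox1 (3.89 ± 0.54) had the largest changes among them, while Pou3f1 (-3.23 ± 0.30) and Sox15 (-2.25 ± 0.33) fell. Sox17 is also in the endoderm list and Sox1 in the neural list.

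In the clones reads were counted over the whole gene span in nuclear RNA, so levels are not compared with those of E14. In the wild-type clone G4 all 9 members were called lower at 74 h, against 27.8% of all genes. Pou5f1 read 229 and 218 CPM at 0 h, 14.2 and 15.4 CPM at 48 h and 3.6 and 1.88 CPM at 74 h, a change of -6.30 ± 0.28 (adjusted p = 6.2e-18). L1td1 went from 295 and 261 CPM to 4.27 and 3.61 CPM (-6.12 ± 0.31) and Utf1 from 110 and 111 CPM to 0.674 and 2.02 CPM (-6.42 ± 0.48). The Utf1 values at 74 h rest on 6 and 14 reads. Dppa2 fell from 39.4 and 42.2 CPM to 3.03 and 1.3 CPM (-4.17 ± 0.41), Dppa4 from 73.9 and 90.5 CPM to 8.88 and 5.77 CPM (-3.47 ± 0.21) and Dppa5a from 180 and 138 CPM to 20.6 and 9.52 CPM (-3.38 ± 0.42). Sall4, Sox2 and Lin28a kept the most, at 34.8%, 55.1% and 65.3% of their 0 h means. The changes were -1.52 ± 0.20, -0.86 ± 0.21 and -0.61 ± 0.18 (adjusted p = 0.0043), and the Lin28a call was lost without G4 0 h replicate 1 (adjusted p = 0.13). In the pluripotency network 22 of 23 genes were called lower in G4 at 74 h, with Nacc1 the exception.

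In no clone was a member called at 2, 4 or 6 h, when 2.32%, 4.32% and 4.9% of all genes were called in either direction in G4, 4.33%, 5.07% and 5.05% in E3 and 4.47%, 4.47% and 5.66% in H12. At an unadjusted p under 0.05 there was at most 1 member at these times in G4 and in E3, and in H12 there were 3 at 6 h. In G4 the 9 genes fell at different times. At 24 h 5 members were called lower (Pou5f1, Utf1, Dppa4, L1td1 and Sall4), against 14% of all genes. At 48 h there were 8, against 24.3%, Lin28a being the exception. At both times the Sall4 call was lost without single libraries (adjusted p up to 0.19 at 24 h and 0.086 at 48 h), as were Utf1 (up to 0.072, and 0.090 by limma) and Dppa4 (up to 0.11) at 24 h and Dppa5a (up to 0.14) at 48 h. Dppa5a differed in timing: its change was 0.51 ± 0.36 at 24 h (adjusted p = 0.31), -1.03 ± 0.37 at 48 h and -3.38 ± 0.42 at 74 h.

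**Figure D3:**
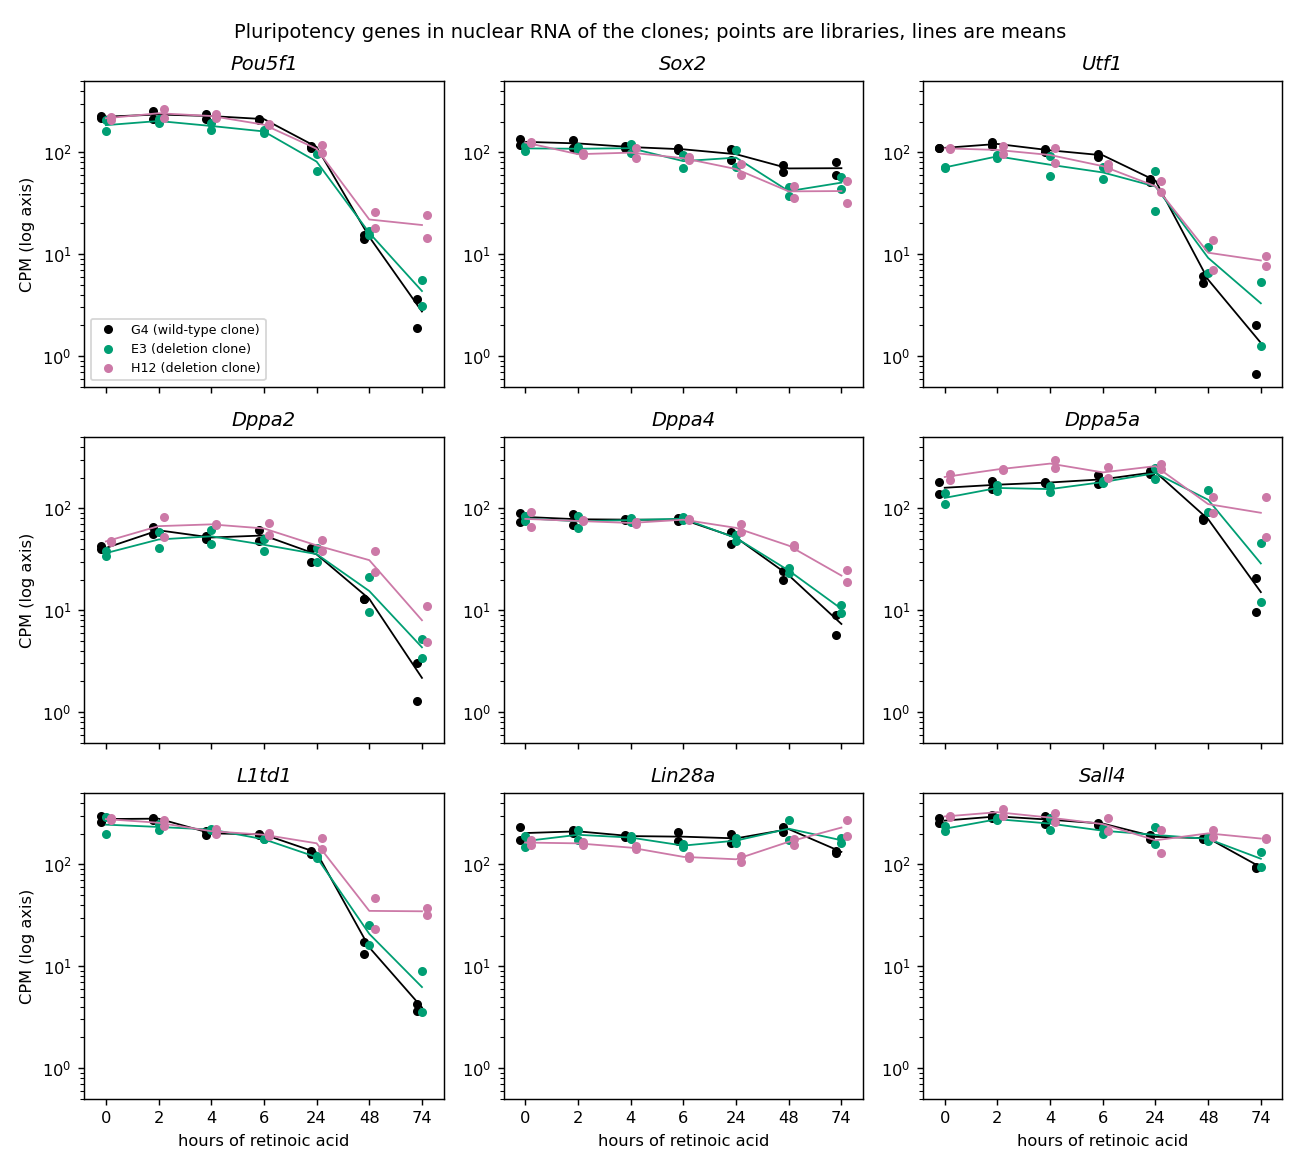
CPM (log axis) of each pluripotency gene in nuclear RNA of clones G4 (enhancer kept), E3 and H12 (enhancer deleted) against hours of retinoic acid, with 2 libraries per point in time and lines through the means. At 74 h the H12 libraries lie above those of G4 and E3 for Pou5f1, L1td1, Utf1, Dppa4, Dppa5a, Lin28a and Sall4.

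The deletion clones also lost pluripotency transcripts, with 8 members called lower at 74 h in each (28.1% of all genes in E3 and 30.3% in H12). In E3 the exception was Lin28a, at 189 and 149 CPM at 0 h and 161 and 183 CPM at 74 h (0.03 ± 0.18). In H12 it was again Lin28a, which was called higher where 29.2% of all genes were: 173 and 154 CPM at 0 h and 189 and 270 CPM at 74 h (0.49 ± 0.18, adjusted p = 0.02). That call was lost without H12 0 h replicate 2 (0.13) or 74 h replicate 2 (0.37), and the H12 fall of Dppa5a (-1.17 ± 0.37) was lost without 74 h replicate 2 (0.20). At 24 h, 3 members were called lower in E3 (Pou5f1, Dppa4 and L1td1; 15.9% of all genes) and 6 in H12 (Pou5f1, Sox2, Utf1, L1td1, Lin28a and Sall4; 16.3%). Without H12 24 h replicate 1 the H12 calls other than Pou5f1 were lost (adjusted p from 0.054 to 0.18), that of Lin28a was also lost without 0 h replicate 1 (0.13), and without E3 24 h replicate 1 that of Dppa4 in E3 was lost (0.071). At 48 h, 6 were called lower in E3 (25.4%; without Dppa5a, Lin28a and Sall4) and 7 in H12 (26.6%; without Dppa2 and Lin28a). Single libraries decided the 48 h calls of Dppa2 in E3 (0.080 without 48 h replicate 1) and of Dppa5a (up to 0.27) and Sall4 (up to 0.14) in H12. The Dppa5a call in H12 (adjusted p = 0.043) was also lost by DESeq2 (0.068), by limma (0.076) and without a filter on low counts (0.087).

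Comparing the mean of the deletion clones with G4 at the same time, no member was called from 0 to 24 h. Of all genes, 2.97% were called lower and 1.31% higher at 0 h, 3.3% and 0.886% at 2 h, 3.19% and 0.666% at 4 h, 3.94% and 1.66% at 6 h, and 1.95% and 0.452% at 24 h, and at most 1 member had an unadjusted p under 0.05 at any of these times. At 48 h Sox2 was called lower (-0.74 ± 0.18; 2.52% of genes) and Dppa4 (0.57 ± 0.17) and L1td1 (0.81 ± 0.23) higher (2.02%). Each of these 3 calls was lost without at least 1 single library: the highest adjusted p was 0.33 for Sox2 and 0.58 for Dppa4, both without G4 replicate 1, and 0.31 for L1td1 without G4 replicate 2.

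At 74 h, 8 members were called higher in the deletion clones than in G4, against 7.66% of all genes, and Sox2 was called lower, against 9.4%. The E3 libraries read 3.11 and 5.58 CPM for Pou5f1 and the H12 libraries 24.4 and 14.3 CPM, beside 3.6 and 1.88 CPM in G4. L1td1 read 3.57 and 8.91 CPM in E3 and 37.4 and 31.8 CPM in H12, beside 4.27 and 3.61 CPM in G4. For both genes E3 overlapped G4, while H12 lay above both. The differences were 1.71 ± 0.29 for Pou5f1 (adjusted p = 7.8e-05) and 1.91 ± 0.30 for L1td1 (adjusted p = 4e-05), and these 2 calls held whichever single library was left out.

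Utf1 read 1.24 and 5.35 CPM in E3 and 9.65 and 7.7 CPM in H12, a difference of 2.09 ± 0.56 from G4 that was lost without E3 replicate 2 (adjusted p = 0.21) or G4 replicate 1 (0.16). Dppa5a read 12.1 and 45.4 CPM in E3 and 129 and 51.7 CPM in H12 (1.75 ± 0.38), with wide gaps between replicates. Dppa2 read 3.42 and 5.23 CPM in E3 and 11 and 4.9 CPM in H12 (1.38 ± 0.44), and Dppa4 9.32 and 11.3 CPM in E3 and 24.7 and 19 CPM in H12 (1.02 ± 0.20). Sall4 read 94.4 and 92.6 CPM in G4, 94.8 and 132 CPM in E3 and 178 and 180 CPM in H12 (0.61 ± 0.17), and Lin28a 137 and 128 CPM in G4 (0.59 ± 0.16). Without G4 replicate 2 the calls of Dppa4 (adjusted p = 0.067), Dppa5a (0.12), Lin28a (0.17), Sall4 (0.17), Dppa2 (0.40) and Sox2 (0.47) were lost. The calls of Dppa2 and Sall4 were also lost without E3 replicate 2 (0.12 and 0.084), those of Dppa2 and Sox2 without H12 replicate 1 (0.14 and 0.11), that of Sox2 without E3 replicate 1 (0.070), that of Sall4 without G4 replicate 1 (0.067) and that of Lin28a without H12 replicate 2 (0.052). Sox2 read 59.8 and 79.8 CPM in G4, 43.5 and 57.2 CPM in E3 and 31.6 and 51.7 CPM in H12. That was the opposite order from the other members (-0.60 ± 0.18, adjusted p = 0.018). In nuclear RNA, reads over Sox2 also count those of Sox2ot, which outside Sox2 averaged 44.4 CPM in G4, 18.4 in E3 and 17.8 in H12. The part of Sox2ot in the Sox2 difference was not tested.

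The 2 deletion clones differed from each other. E3 alone against G4 at 74 h gave no call among the members (2.95% of all genes called lower and 1.41% higher, and 5 members at an unadjusted p under 0.05), with differences from -0.46 for Sox2 to 1.44 for Utf1. H12 alone gave 8 higher and Sox2 lower (12.2% and 12.9% of all genes). Those of Sox2 (adjusted p = 0.21) and Dppa2 (0.11) were lost without G4 replicate 2, the same 2 without H12 replicate 1 (0.26 and 0.20), and that of Lin28a without H12 replicate 2 (0.074). In E3 against H12, 5 members were called lower, against 4.43% of all genes: L1td1 (-2.42 ± 0.29), Pou5f1 (-2.11 ± 0.27), Dppa5a (-1.62 ± 0.39), Dppa4 (-1.07 ± 0.21) and Sall4 (-0.66 ± 0.19). The calls of L1td1, Pou5f1 and Dppa4 held without any single library, and those of Dppa5a (adjusted p up to 0.31) and Sall4 (up to 0.43) did not. Utf1 was also called lower by DESeq2 (0.034) and limma (0.025). These comparisons share libraries.

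Tested as a difference in the response from 0 to 74 h between the deletion clones and G4, 6 members were called, all with a smaller fall or a rise in the deletion clones, where 3.82% of all genes were called in that direction. They were Utf1 (2.42 ± 0.62), L1td1 (2.00 ± 0.36), Pou5f1 (1.88 ± 0.33), Dppa5a (1.74 ± 0.48), Dppa4 (1.07 ± 0.25) and Lin28a (0.87 ± 0.22). Dppa2 (1.36 ± 0.51, adjusted p = 0.10), Sall4 (0.67 ± 0.24) and Sox2 (-0.48 ± 0.25) were not called. Dppa2 was called by DESeq2 (adjusted p = 0.033) and limma (0.047), and Sall4 with a replicate block (0.027), while limma lost Dppa5a (0.052). Only Pou5f1 and L1td1 held without every single library: Dppa4 was lost without G4 74 h replicate 2 (adjusted p = 0.15), Utf1 without E3 74 h replicate 2 (0.19), G4 74 h replicate 1 (0.12) or G4 0 h replicate 1 (0.054), and Lin28a without G4 0 h replicate 1 (0.19) or G4 74 h replicate 2 (0.10). Dppa5a was lost without any of 6 libraries, with the highest adjusted p, 0.29, without G4 74 h replicate 2.

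Markers of another lineage moved with the same clone. The summed level of the 11 endoderm markers at 74 h was 2333 to 3061 CPM in G4, 2623 to 3177 CPM in E3 and 19088 to 21677 CPM in H12. At 0 h it was 814 to 914 CPM in G4, 997 to 1041 CPM in E3 and 623 to 667 CPM in H12. At 74 h the summed ranges of E3 and G4 overlapped. Of the 11, 10 were called higher in the deletion clones than in G4, against 7.66% of all genes. In E3 against H12, 10 were called lower, against 4.43%. Gata6 read 24.6 and 33.8 CPM in G4, 37.3 and 45.3 CPM in E3 and 112 and 104 CPM in H12. Neural markers summed to 529 to 555 CPM in G4, 380 to 391 CPM in E3 and 357 to 568 CPM in H12. Of the 9, 6 were called lower in the deletion clones, against 9.4% of all genes. The part of these cells in the higher pluripotency transcripts of H12 was not tested.

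In SCC1-mAID cells, 4 h of RA gave no call among the members, where 0.72% of all genes were called lower and 1.85% higher and 3 members had an unadjusted p under 0.05. Sox2 came nearest: 286, 254 and 243 CPM untreated and 201, 140 and 157 CPM with RA, with no overlap between the groups (-0.65 ± 0.17, adjusted p = 0.055). With DESeq2 the adjusted p was 0.019, without a filter on low counts 0.0094 and with a replicate block 0.037, while the authors' size factors gave a change of -0.49 with an adjusted p of 1.00. Dppa2 read 43, 47.7 and 34.9 CPM untreated and 64.5, 52.3 and 65.5 CPM with RA, again without overlap (0.54 ± 0.22, adjusted p = 0.34). Of the 23 network genes, 2 were called lower, Foxd3 (-1.86 ± 0.18) and Klf4 (-0.81 ± 0.19).

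Auxin without RA also gave no call among the members (0.135% of all genes lower and 0.0998% higher, with 3 members at an unadjusted p under 0.05). Cells without the degron were not given auxin, so auxin itself and loss of the cohesin subunit cannot be told apart. Dppa4 read 59.1, 51.3 and 48.9 CPM untreated and 67.2, 75.7 and 80.6 CPM with auxin, a change of 0.49 ± 0.14 (adjusted p = 0.17). RA in auxin-treated cells lowered Sox2 (0.812% of all genes called lower), from 166, 243 and 186 CPM to 141, 131 and 102 CPM (-0.67 ± 0.17, adjusted p = 0.048). That call was lost with the authors' size factors (adjusted p = 1.00), without auxin-and-RA replicate 1 (0.079) or 3 (0.16) and without auxin replicate 2 (0.26) or 3 (0.080). No member was called between auxin-and-RA and RA alone (0.321% lower and 0.0428% higher; 1 member at an unadjusted p under 0.05), where Sox2 changed by -0.41 ± 0.17. The difference in RA response with and without auxin was called by edgeR for no member and for 0% of all genes, against 1 gene by DESeq2, with 974 of 14031 genes and 1 member at an unadjusted p under 0.05. The largest differences among the members were 0.55 ± 0.30 for Pou5f1 (adjusted p = 0.69) and -0.53 ± 0.20 for Dppa4 (adjusted p = 0.69).

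**Figure D4:**
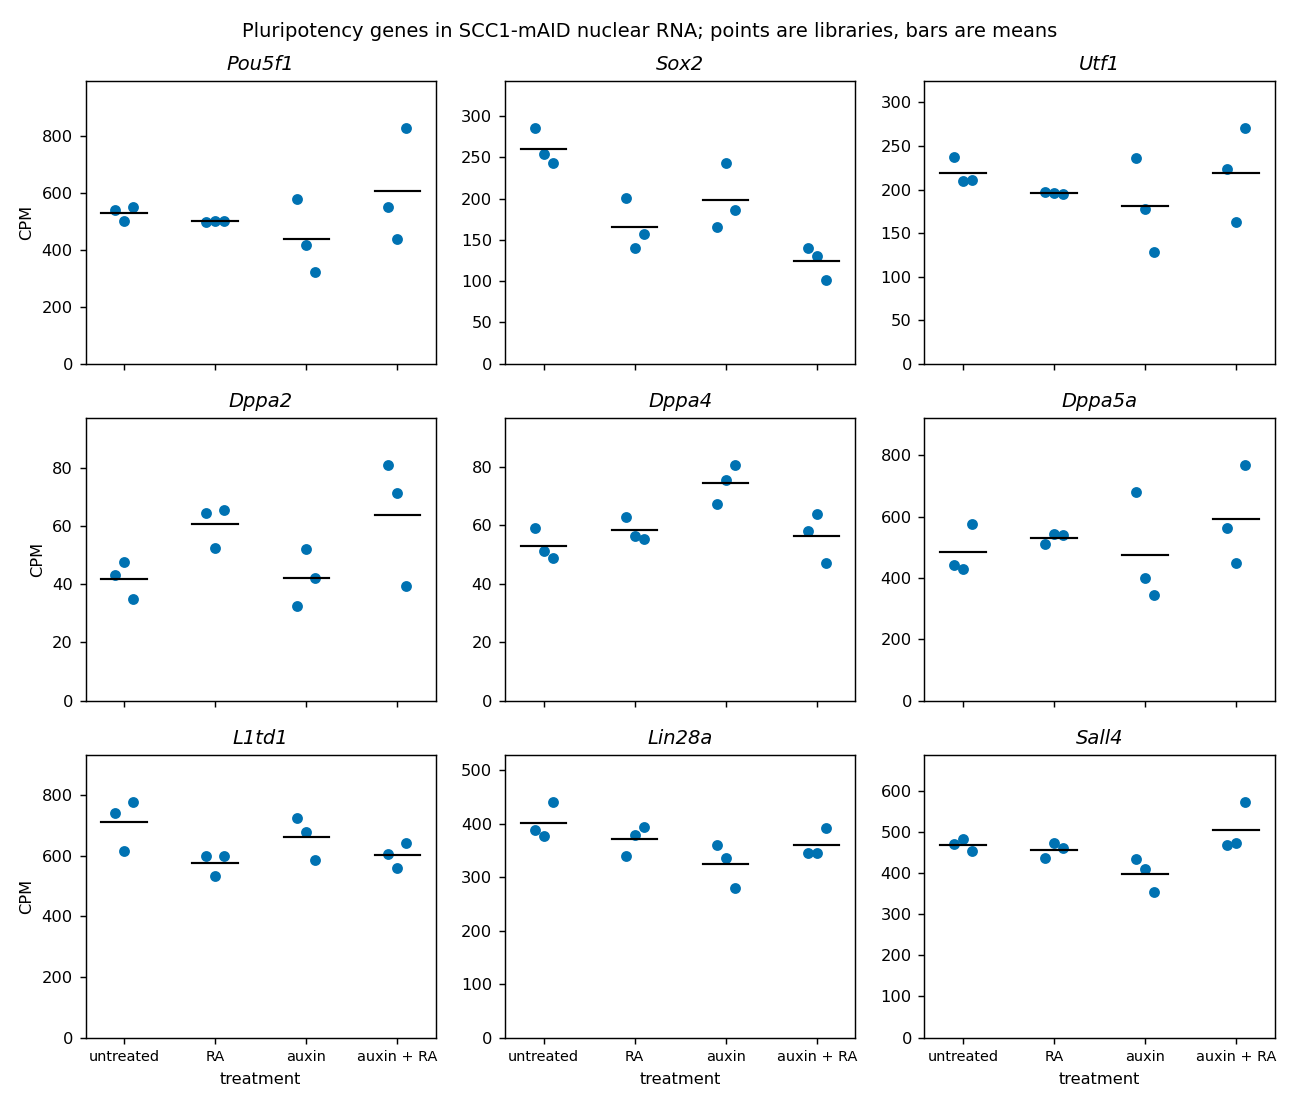
CPM of each pluripotency gene in the 12 nuclear RNA libraries of SCC1-mAID cells by treatment (axes from 0), with points for libraries and bars for means. Sox2 is lower in all 3 RA libraries than in all 3 untreated ones, and in all 3 auxin-and-RA libraries than in all 3 auxin ones.

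Across the 25 E14 libraries, each member's log2 level was set against the mean profile of all 9. Pearson's r was 0.961 for Pou5f1, 0.960 for Utf1, 0.953 for L1td1, 0.928 for Dppa4, 0.920 for Sall4, 0.909 for Dppa2 and 0.873 for Sox2, and lower for Dppa5a (0.566) and Lin28a (0.293). In the 42 clone libraries Dppa5a was at 0.874 and Lin28a at 0.0863. Libraries of one time share their treatment, and each member is part of the mean, so these values describe the time course. The genes outside the list most like the mean were Sox15 (0.966, and 0.692 in the clones), Eras (0.964 and 0.940), Etv5 (0.964 and 0.955), Lncenc1 (0.959 and 0.941) and Rarg (0.959 and 0.924). For single members the most alike gene was Etv5 for Pou5f1 (0.989), Zscan10 for Utf1 (0.987), Platr10 for L1td1 (0.988), Snhg7 for Dppa4 (0.979), Mreg for Dppa2 (0.924), Mlh3 for Sox2 (0.924) and Mthfd1 for Sall4 (0.940). Dppa5a was most like Gm6083 (0.975), and reads of such near copies may be shared between them. Lin28a was most like Zbtb8os (0.747), which had an r of -0.323 with it in the clones.

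Sox2 shares its strand and place with Sox2ot. In the nuclear tables, counted over the whole span, reads over Sox2 count for both, whereas in E14 cells at 0 h Sox2 had 6475 and 8977 reads and Sox2ot 129 and 140. Reads of Sox2ot outside Sox2, in CPM, averaged 48.9 in G4 at 0 h and 44.4 at 74 h, 63.1 and 18.4 in E3, and 93.9 and 17.8 in H12. In E14 cells, counted over exons, they averaged 7.39 at 0 h and 1.57 at 72 h. Pou5f1 has a short transcript at chr17:35508807-35510777, which lies inside the full one and shares its end. In E14 cells its reads were 80.2% of those of the full one at 0 h and 79.2% at 72 h. Reads over the shared stretch may count for both, so these values are not the share of the short isoform. The 2 transcripts of Dppa4 and the 3 of Sall4 had equal reads in all 12 and 42 nuclear libraries, where counts cover the whole span, so isoforms were not separated there. In the authors' deposited table, Pou5f1, Utf1, Dppa4 and L1td1 are classed as downregulated, Sox2, Dppa5a, Lin28a and Sall4 as stably active, and Dppa2 as stablish.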

How the data were processed

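Total RNA (E14) and nuclear RNA (SCC1-mAID cells and clones) were sequenced after ribosomal RNA depletion with a strand-specific kit, and fly cells were mixed in for calibration, per the labels' protocols. The submitters' processing notes name STAR, Bowtie2, SAMtools and DESeq2 with builds mm10 and dm6; versions, the counting program and strand setting are not given in the sources used here. The deposited values are a signal per transcript: reads divided by 1 size factor per library. The E14 tables also hold FPKM as deposited by the authors. Whole reads were recovered from the signal within 0.1 read, for at least 99.9966% of values in each library, and those counts were tested. One transcript per symbol, that with the highest mean share of reads, was kept. Counts per library are given in the report.

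The analysis used edgeR 4.0.16 in R 4.3.3: TMM scaling, filterByExpr, 1 fit per set over all its groups and the quasi-likelihood test, adjusted over 15084 (E14), 14031 (SCC1-mAID) and 15923 (clones) genes. The SE is the log2 change divided by the square root of F. Fold changes of clones over both deletion clones used the mean of E3 and H12. Alternatives were DESeq2 1.42.0, the authors' size factors, limma 3.58.1 on log2 of the deposited value plus 1, no filter on low counts, a replicate block, other transcripts and each library left out. Libraries numbered 3 and 4 alone, and each deletion clone alone, were added after seeing the data. The test was also run on counts simulated for the E14 and SCC1-mAID sets, with the same dispersion for every gene and no differences between replicate numbers. The clones were not simulated, so this run says nothing on those results or on the replicate structure.

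The members and lists were chosen with earlier results of these data known. All 9 members are named; from other lists the 4 called genes with the largest change at 72 h are named, apart from genes not reported here, and genes outside the rule (Tbx3, Nanog, Nacc1, Pou3f1, Sox15, Klf4, Gata6, Tubb3) were chosen after their values were seen. Replicates are biological per the series text. No 2 libraries of a group agreed within sampling noise. SCC1-mAID replicates numbered 3 in titles carry another number in a second label.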

Additional observations from a re-analysis of the deposited data

Results flagged for a closer look

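In groups of 4 E14 libraries, 1 library stood far from the other 3 in 2 of 45 tests, where chance gives about 1 in 20. Pou5f1 was lowest at 370 CPM in replicate 2 at 4 h, and Sall4 was highest at 498 CPM in replicate 1 at 72 h.

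The response from 0 to 74 h differed between the deletion clones and G4 for 6 members by the test of the difference itself: log2 2.42 for Utf1, 2.00 for L1td1, 1.88 for Pou5f1, 1.74 for Dppa5a, 1.07 for Dppa4 and 0.87 for Lin28a. Deletion and clone cannot be told apart in these differences, since 1 wild-type clone was sequenced. The test took the mean of E3 and H12. At 74 h E3 alone against G4 gave no call among the members, while H12 alone gave 8 higher and 1 lower. Of the 6 calls, only those of Pou5f1 and L1td1 held whichever single library was left out.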

How the results depend on the processing

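No member that was called changed sign under any alternative run. Each of the reversals was in a member that was not called, and those given here are not all of them. With the authors' size factors at 72 h in E14, Dppa5a was 0.061 and Lin28a 0.056, and limma gave 0.019 for Lin28a. With E14 replicates 3 and 4 only, Dppa5a at 48 h was -0.020. Other uncalled changes near 0 also reversed there, such as Lin28a at 48 h (0.0051, against -0.16) and Sox2 at 4 h (0.019, against -0.29). Leaving out 1 library gave -0.0093 to 0.26 for Dppa5a at 6 h in E14 and -0.13 to 0.21 for Lin28a at 74 h in E3, where -0.07 was the value without 74 h replicate 2. It gave -0.040 to 0.68 for Sox2 between E3 and H12 at 74 h and -0.035 to 2.34 for Utf1 between E3 and G4 at 74 h.

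With E14 replicates 3 and 4 only, an alternative chosen after seeing the data, 1 member was called higher at 4 h, 1 at 6 h and 1 at 24 h, 4 were called lower at 24 h, 8 between 24 and 48 h and 6 between 48 and 72 h. These counts show how far the calls moved and are given without the shares over all genes. DESeq2 called 2 lower between 48 and 72 h. DESeq2, the alternative without a filter on low counts and the replicate block each called 1 lower with RA in SCC1-mAID cells and 1 higher in E3 at 48 h. For auxin and RA against auxin, the authors' size factors and limma each called 0 lower. At 48 h in the deletion clones against G4, limma called 0 higher and the alternative without a filter 1. With clone E3 alone against G4, 0 were called in either direction at 48 h and at 74 h.

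Leaving out 1 library at a time gave 0 to 2 members lower in E14 at 24 h, 5 to 6 at 48 h, 7 to 8 at 72 h, 3 to 5 between 24 and 48 h and 0 to 4 between 48 and 72 h. In SCC1-mAID cells it gave 0 to 1 lower with RA, and 0 to 1 in each direction for auxin and RA against auxin. The range was 2 to 4, 6 to 8 and 8 to 9 lower in G4 at 24, 48 and 74 h. In E3 it was 2 to 4 lower at 24 h and 5 to 6 at 48 h, with 0 to 1 higher at 48 h. In H12 it was 1 to 6, 5 to 7 and 7 to 8 lower, with 0 to 1 higher at 74 h. For the deletion clones against G4 it was 0 to 1 lower and 0 to 3 higher at 48 h, and 0 to 1 lower and 3 to 8 higher at 74 h, with 3 to 7 higher for the difference in response. Between clones at 74 h it was 3 to 6 lower for E3 against H12, 0 to 1 higher for E3 against G4, and 0 to 1 lower and 7 to 8 higher for H12 against G4.

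Libraries of the same replicate number were not treated as paired. The correlations of same-numbered libraries' deviations ran from -0.17 to 0.58 in E14 (median 0.07). They ran from -0.37 to 0.34 in SCC1-mAID (median 0.15) and from -0.32 to 0.37 in the clones (median 0.08). Between differently numbered libraries they ran from -0.50 to 0.50 in E14 (median -0.02), from -0.57 to 0.52 in SCC1-mAID and from -0.37 to 0.32 in the clones. This check cannot show a batch shared by libraries of different numbers, since such pairs count as differently numbered. With a replicate block, of the calls among the members only that of Sall4 at 48 h in E14 was lost (adjusted p = 0.051 by edgeR).

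Counts over all genes, given as lower and then higher, moved by over 1.5 times in these comparisons. Between 48 and 72 h in E14 they were 918 and 963, against 558 and 3333 with the authors' size factors, 892 and 3635 by limma and 1709 and 1577 with replicates 3 and 4. At 2 h they were 14 and 61, against 28 and 112 by DESeq2, 3 and 37 by limma, 25 and 103 with the block and 63 and 265 with replicates 3 and 4. At 4 h they were 137 and 231, against 41 and 93 by limma and 606 and 535 with replicates 3 and 4, and at 6 h 271 and 326, against 166 and 160 and 864 and 762. With RA in SCC1-mAID cells they were 101 and 260, against 0 and 72 with the authors' size factors and 2 and 72 by limma. With auxin they were 19 and 14, against 109 and 83 by DESeq2, 1 and 2 with the authors' size factors and by limma, 83 and 70 without a filter and 66 and 32 with the block. For auxin and RA against auxin they were 114 and 256, against 5 and 42 with the authors' size factors and 2 and 48 by limma. Against RA they were 45 and 6, against 83 and 13 by DESeq2, 2 and 2 with the authors' size factors, 3 and 2 by limma and 77 and 10 without a filter. The difference in RA response gave 0, against 1 by DESeq2 and 3 without a filter. With the block, E3 against G4 at 74 h went from 470 and 225 to 629 and 442, the difference in response at 74 h from 498 and 609 to 798 and 998, and the deletion clones against G4 from 473 and 209 to 676 and 363 at 0 h and from 627 and 264 to 891 and 475 at 6 h. The cause of these moves was not tested.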

Other observations

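At 72 h in E14 cells 30.4% of all genes were called higher and 29.3% lower. Genes of the 2-cell-like state, a rare state of stem cells with transcripts of the early embryo, rose in E14 cells: 8 of 8 tested were called higher at 72 h, with Zscan4d at 5.09 ± 0.45, Zscan4f at 5.07 ± 0.43, Usp17la at 4.83 ± 0.48 and Zscan4c at 4.53 ± 0.42. Their summed level was 7.21 to 11.5 CPM at 0 h, 217 to 383 CPM at 48 h and 147 to 417 CPM at 72 h, the late groups without overlap with 0 h. These genes belong to near-identical families whose reads can be shared. In G4 the summed level was 19.3 to 26.2 CPM at 0 h, 134 to 181 CPM at 48 h and 31.7 to 51.1 CPM at 74 h.

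All 11 endoderm markers were called higher in E14 cells at 72 h, led by the transcription factor genes Sox17 (5.87 ± 0.54), Foxa2 (5.46 ± 0.60) and Gata6 (5.09 ± 0.34) and the receptor gene Pdgfra (4.67 ± 0.35). Of 9 neural markers tested, 6 were called higher, among them Zic1 (6.33 ± 0.57), Irx3 (4.94 ± 0.47) and Neurog2 (4.61 ± 0.80), and Tubb3 fell (-2.16 ± 0.24). Of 5 mesoderm markers tested, Kdr was called lower (-1.58 ± 0.32). Of 6 trophoblast markers, Krt18 (2.29 ± 0.89) and Hand1 (1.35 ± 0.46) were called higher and Tfap2c lower (-1.74 ± 0.42). The share of trophoblast markers called higher is near that of all genes, and nothing is read from the mesoderm and trophoblast counts. Of 6 fibroblast markers, Col3a1 (4.94 ± 1.27), Col1a2 (4.55 ± 1.15) and Dcn (1.54 ± 0.49) were called higher and Thy1 lower (-0.93 ± 0.23). Their summed level was 743 to 1102 CPM at 72 h and 241 to 244 CPM at 0 h, where only replicates 3 and 4 exist, but 585 to 1261 CPM in replicates 1 and 2 at 2 to 6 h, a range that overlaps that of 72 h. Among the RA target genes, Hoxb1 (6.64 ± 0.74), Stra8 (4.86 ± 0.27) and Rarb (4.32 ± 0.35) rose.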
